A study of Homo sapiens with 6 samples.

Results

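Telomerase is an enzyme that rebuilds chromosome ends, and this account follows the accessible chromatin around the genes of its core: TERT, which encodes the reverse transcriptase, and TERC, which encodes the RNA that carries the template. Both were taken by name, 2 genes of 59679 in the RefSeq table (GRCh38.p14), together with every deposited peak that overlapped the gene span or the 50 kb on either side. TERT (gene ID 7015) spans chromosome 5, 1253167 to 1295068, and TERC (gene ID 7012) spans chromosome 3, 169764610 to 169765060. The TERT window held 11 to 20 peaks per library and the TERC window 6 to 15, out of 91346 to 170882 peaks on the chromosomes in a library.

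The peaks come from ATAC-seq, in which a transposase cuts and tags open DNA, applied to NCI-H1703, an established human line labelled as lung squamous cell carcinoma. In 3 libraries the long non-coding RNA DLGAP1-AS2 had been silenced (their titles read ASO), and 3 libraries were labelled as control (titles NC). Both groups share the line and carry no other labelled treatment, and the labels do not say whether the 3 libraries of a group came from separate cultures, so p-values measure only the spread between libraries. The lists hold no RNA, so they check neither the silencing nor the expression of TERT or TERC.

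Telomerase adds short repeats to chromosome ends, copying them from the TERC template. Most somatic cells transcribe TERT little or not at all, whereas TERC is made in many tissues, and renewed TERT transcription is a common step by which carcinomas keep dividing. The TERC region on the long arm of chromosome 3 and the TERT region at the tip of chromosome 5 are both often gained in squamous lung cancer. DNA copy number was not measured here.

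The bases just upstream of the starts are shown for TERT and for the 3 protein-coding neighbours whose starts carried a peak in every library, because the contrast between those starts is the main pattern in these windows. Each run gives the 250 bases before the RefSeq start (GRCh38.p14), 5′ to 3′ on the strand of the gene. Capitals mark matches, on either strand, to an E-box (CACGTG), a GC box (GGGCGG) or a longer ETS form (CCGGAA). These motifs do not overlap one another here. The shorter ETS core GGAA was not marked.
TERT, chr5:1295069-1295318, minus strand: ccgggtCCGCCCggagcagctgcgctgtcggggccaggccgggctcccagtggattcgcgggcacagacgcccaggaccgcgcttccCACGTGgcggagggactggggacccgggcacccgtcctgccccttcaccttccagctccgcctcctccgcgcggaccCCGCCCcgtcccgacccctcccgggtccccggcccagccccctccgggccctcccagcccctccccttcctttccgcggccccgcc
CLPTM1L, chr5:1345100-1345349, minus strand: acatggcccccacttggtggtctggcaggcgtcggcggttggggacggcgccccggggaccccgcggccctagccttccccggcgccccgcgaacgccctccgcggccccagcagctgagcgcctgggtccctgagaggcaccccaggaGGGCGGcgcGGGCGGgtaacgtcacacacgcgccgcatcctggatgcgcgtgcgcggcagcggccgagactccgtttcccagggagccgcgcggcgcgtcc
ACTRT3, chr3:169769562-169769811, minus strand: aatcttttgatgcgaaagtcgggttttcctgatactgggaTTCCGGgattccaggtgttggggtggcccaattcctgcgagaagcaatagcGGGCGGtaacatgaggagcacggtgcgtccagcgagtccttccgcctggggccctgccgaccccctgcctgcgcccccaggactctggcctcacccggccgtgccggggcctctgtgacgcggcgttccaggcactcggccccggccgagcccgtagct
MYNN, chr3:169773146-169773395, plus strand: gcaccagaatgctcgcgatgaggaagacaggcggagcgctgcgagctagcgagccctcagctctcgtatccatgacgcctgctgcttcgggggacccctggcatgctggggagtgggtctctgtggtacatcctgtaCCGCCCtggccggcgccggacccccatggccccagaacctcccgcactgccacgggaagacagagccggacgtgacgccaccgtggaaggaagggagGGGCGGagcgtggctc

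The TERT run was 78.8% G and C, against a median of 58.0% over the 35116 promoters of the RefSeq table, and 4.64% of promoters were as rich or richer. It held 28 CpG steps, against a median of 11. An E-box, the site class bound by MYC and MAX, began 163 bases upstream of the TERT start and was found in 6.34% of all promoters. GC boxes, the site class of SP1, began 244 and 86 bases upstream, and 42.6% of promoters held at least 1. The longer ETS form CCGGAA had no match in the TERT run, 1 match in the ACTRT3 run, and a match in 14.5% of promoters. The shorter core GGAA, read on either strand, does occur in the TERT run and was not counted. CLPTM1L was similar in base content, at 77.2% G and C and 36 CpG steps.

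The libraries differed in depth, and this touches every height below. Read totals are not given, so the smallest background that a library's peaks imply was taken as a relative depth, and it was 0.237 in silenced replicate 3, 0.464 in control replicate 2 and 0.369 to 0.402 in the other 4. Of 6 squamous markers, only SOX2 had a peak at a gene end in all 6 libraries (heights 10 to 22). TP63 had low peaks (heights 2 to 5) in 4 libraries, KRT5, KRT14 and DSG3 had one in 1 or 2 libraries, and KRT6A had none. Of 4 adenocarcinoma and alveolar markers, NKX2-1 (heights 16 to 36), NAPSA (5 to 12) and SFTPC (5 to 11) had peaks in all 6 libraries, and SFTPB had one in 2 silenced libraries (5 and 6). Several defining squamous markers thus lacked a peak at a gene end, and some markers of the other type had one. Over all protein-coding genes, 58.0% had a peak within 1 kb of an end in all 6 libraries. Starts inside a gene span were not counted, so these few markers say little about cell type. The leukocyte markers PTPRC and CD3E and the endothelial marker PECAM1 had a peak in 2 libraries each, and CDH5 had none.

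TERC carried a strong peak over its upper end in all 6 libraries. That end is taken as its start from general knowledge of the gene, since the tables used here give no strand for it. The height of a peak is the fragment pileup the authors deposited, and values below follow the order of replicates 1, 2 and 3. It was 52, 57 and 29 among silenced libraries, while the controls had 41, 55 and 41. The groups overlapped, and the lowest value was in silenced replicate 3, the library of lowest depth. The silenced mean was 46.0 ± 14.9 (SD, n = 3), and that of the controls was 45.7 ± 8.08 (SD, n = 3). Fold enrichment over background, also the authors' value, was 11.1, 10.5 and 8.57 in silenced and 8.90, 10.6 and 9.17 in control replicates. The merged region covered positions 169764890 to 169765373, so it reached from inside the RNA gene past its upper end. For comparison, 62.6% of the 15843 protein-coding genes with a listed start had a start peak in all 6 libraries.

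**Figure D1:**
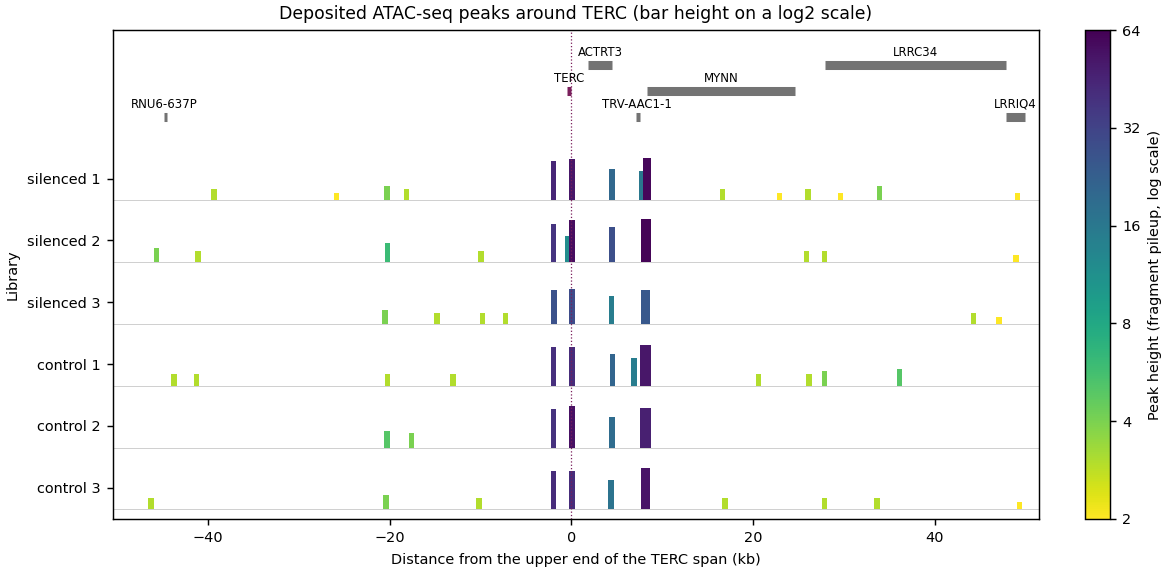
Peaks around TERC in each library, with distance from the upper end of the TERC span in kb on the horizontal axis and 1 row per library; bar height (log2) and colour (log scale) give the peak height, and grey bars above are the other annotated genes. The tall peaks at TERC, just below it, at ACTRT3 and at MYNN recur in all 6 libraries, while most of the others are low and appear in a single library.

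Divided by the smallest background of its library, the height at the TERC start was 141, 142 and 123 after silencing. The same scaled height was 108, 119 and 110 in the controls. All 3 silenced libraries lay above all 3 controls on this scale, which was chosen after the values had been seen. Silenced libraries averaged 135 ± 10.9 (SD, n = 3) and controls 112 ± 5.61 (SD, n = 3), a log2 ratio of 0.27, with a two-sided exact permutation p of 0.1, the smallest that 3 libraries against 3 can give. Among the 37284 regions called in every library, 4.78% were likewise higher in every silenced library and 4.45% were lower, and their median log2 ratio was −0.01. Across both windows, 2 of 11 shared regions were higher without overlap and 2 were lower, each with an exact permutation p of 0.1.

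The rank of each shared region within its own list was compared across all 37284 regions with limma. The TERC start stood 0.25 ± 0.23 (SE) normal-score units higher in silenced libraries, with an adjusted p of 0.965 (limma, Benjamini-Hochberg). None of the 11 shared regions in the 2 windows passed an adjusted p of 0.05, where the share of all shared regions was 0%. At an unadjusted p under 0.05 stood 1 of the 11, the ACTRT3 start, against 4.68% of all shared regions. By p-value, the TERC peak ranked in the top 3.30%, 3.64% and 5.53% of the silenced lists and the top 5.31%, 6.90% and 5.48% of the control lists. The list lengths differ, so these places are not comparable across libraries as they stand. With each list cut to its 91346 strongest peaks, the place averaged 6.63% ± 0.750 (SD, n = 3) after silencing, and the controls averaged 8.93% ± 1.76 (SD, n = 3; two-sided exact permutation p = 0.2).

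A peak of nearly the same strength lay below the TERC gene, past its lower end. It covered 169762949 to 169763348, with its midpoint 1.91 kb from the TERC start, and overlapped no gene of the table. Its height was 44, 38 and 27 after silencing, while the controls had 40, 39 and 42. On the scaled height the groups overlapped, with a silenced mean of 109 and a control mean of 101, and the rank difference was −0.01 ± 0.24 (SE; limma adjusted p = 1). Silenced replicate 2 had a further low peak inside TERC itself, of height 12.

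The genes that follow TERC along the chromosome were also accessible at their starts. ACTRT3, which encodes an actin-related protein, had a peak at its start in all 6 libraries, with heights of 20, 28 and 15 in silenced and 21, 19 and 17 in control replicates. The groups overlapped, and each value was below that at the TERC start in the same library. The ACTRT3 region had the largest rank difference of the 11, 1.04 ± 0.48 (SE) higher in silenced libraries, with an unadjusted p of 0.0445 and an adjusted p of 0.963 (limma). MYNN, which encodes a zinc-finger protein, had the broadest region of the window, 1171 bases, with heights of 60, 62 and 25 in silenced and 52, 47 and 53 in control replicates. The listed peaks covered all 250 bases of the MYNN run above in every library. LRRC34 and LRRIQ4 had a start peak only in silenced replicate 3, with a height of 2.

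TERT gave another picture. A peak overlapped 1 kb around its start in 3 of 6 libraries, with a height of 10 in silenced replicate 2, 11 in control replicate 2 and 14 in control replicate 3. No start peak was listed in silenced replicates 1 and 3 or in control replicate 1, so calls and gaps occurred in both groups and no test was made. The FDR that the authors gave these peaks was 0.00469, 0.00300 and 1.06e-05 in that order. They reached 94, 20 and 136 bases upstream into the TERT run printed above, so none covered its E-box at 163 bases. At CLPTM1L, 209 to 250 bases of the corresponding run were covered in every library. At ACTRT3 the covered length was 143, 202 and 135 bases in silenced and 245, 214 and 94 in control replicates, which overlaps the TERT values.

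A start called in exactly 3 libraries was found at 2.44% of protein-coding genes, while 17.1% were called in none. Starts called in 1, 2, 4 and 5 libraries made up 7.49%, 4.18%, 2.42% and 3.67%, so calls in some libraries only were not particular to TERT. The scaled height at the TERT start was 24.9 in silenced replicate 2 and 23.7 and 37.7 in control replicates 2 and 3. That was well under the 108 to 142 seen at the TERC start. Where no peak was listed, the depth set a floor. With the background of the nearest listed peak, a height of 5 in silenced replicate 1, 4 in silenced replicate 3 and 6 in control replicate 1 was the lowest that gives a Poisson p of at most 0.01, the limit seen in the lists. On the scaled height these floors were 13.6, 16.9 and 15.8, so a weaker signal was not detectable there. In the libraries with a start peak the floors were similar, at 14.9 in silenced replicate 2 and 15.1 and 18.8 in control replicates 2 and 3. Why the start was called in some libraries only was not tested.

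**Figure D2:**
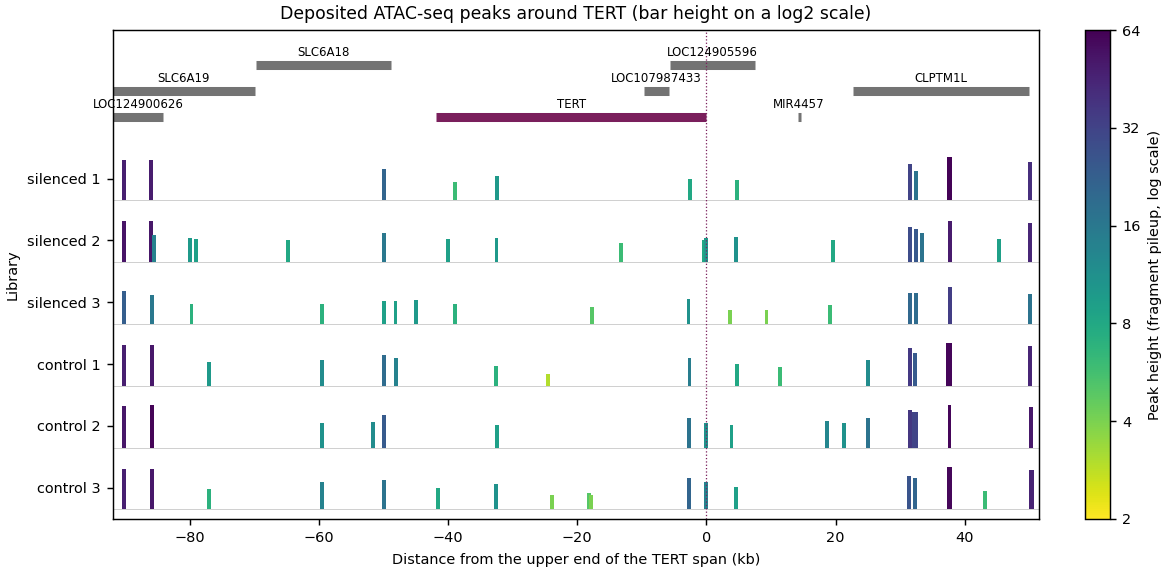
Peaks around TERT in each library, drawn as for TERC, with distance from the upper end of the TERT span (its start) in kb on the horizontal axis. The start itself carries a bar in 3 libraries only, whereas the peaks in SLC6A19 and CLPTM1L at both sides recur in all 6.

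Inside the gene, TERT had no region called in all 6 libraries. A region 2.70 kb downstream of the start, at 1292063 to 1292676, was called in 5 libraries, with heights of 8 (silenced replicate 1) and 11 (silenced replicate 3), while the controls had 15, 17 and 21. The only library without it was silenced replicate 2, which did have a start peak. On the scaled height the groups overlapped, with 21.7 in silenced replicate 1, 46.5 in silenced replicate 3 and 39.5, 36.7 and 56.5 in the controls. An annotated protein-coding locus, LOC124905596, overlaps TERT there and across the start, so a peak cannot be assigned to either from position. Another region, 32.5 kb into the gene at 1262282 to 1262754, was called in every library but silenced replicate 3, with heights of 7 to 11. Peaks overlapping the TERT span numbered 3, 5 and 3 in silenced and 3, 3 and 7 in control replicates.

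**Figure D3:**
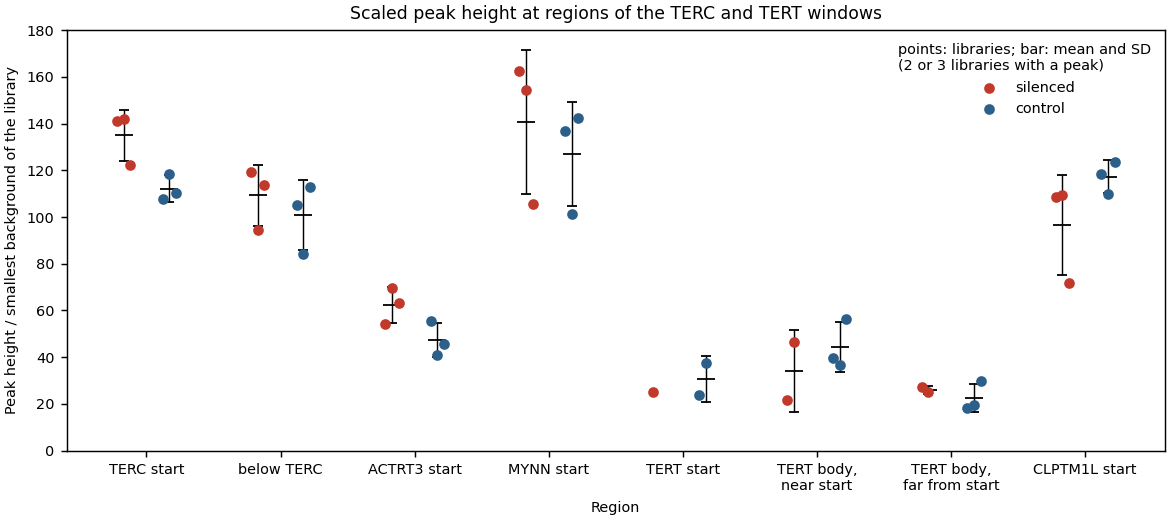
Peak height divided by the smallest background of the library (vertical axis, linear from 0) at 8 regions, with 1 point per library that called the region and bars for mean and SD. The silenced points at the TERC start (123 to 142) lie above the control points (108 to 119), and the TERT start has 1 silenced and 2 control points, all under 38.

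Over all listed peaks, counts in the windows overlapped between the groups. The TERT window held 11, 20 and 17 peaks in silenced and 16, 16 and 18 in control replicates, a mean of 16 ± 4.58 (SD, n = 3) against 16.7 ± 1.15 (SD, n = 3; two-sided exact permutation p = 0.9, adjusted p = 1 over 10 tests). The TERC window held 15, 12 and 10 peaks in silenced and 13, 6 and 11 in control replicates, 12.3 ± 2.52 (SD, n = 3) against 10.0 ± 3.61 (SD, n = 3; exact permutation p = 0.5, adjusted p = 1). Peaks covered 5290 ± 1319 bases (SD, n = 3) of the TERT window after silencing and 5642 ± 518 bases (SD, n = 3) of it in the controls (exact permutation p = 0.8). In the TERC window they covered 4096 ± 487 and 3789 ± 879 bases (SD, n = 3 each; exact permutation p = 0.6). Among peaks with an FDR up to 1e-05, the groups did not overlap in the TERT window, which held 6, 6 and 7 such peaks in silenced and 8, 9 and 9 in control replicates. These covered 2337, 2677 and 3155 bases in silenced and 3582, 3636 and 3391 bases in control replicates, and both differences had an exact permutation p of 0.1, unadjusted and the smallest possible. This limit was picked out of the alternatives run. In the others the exact permutation p was at least 0.3 for TERT peak counts and at least 0.2 for covered bases. The share of all gene windows that separate at this limit was not computed. Over all chromosomes the silenced lists held 33511, 36225 and 24487 peaks of that strength and the control lists 35695, 37323 and 36497, and the part of these totals in the TERT counts was not tested. The TERC window held 3 or 4 such peaks in every library. Over all listed peaks, the sign of the TERT differences turned without silenced replicate 1, to 1.83 peaks and 354 bases, and that of the TERC covered length turned without control replicate 2, to −198 bases.

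Merging the 6 lists gave 38 regions in the TERT window and 31 in the TERC window. Of these, 6 and 5 were called in all 6 libraries (15.8% and 16.1%), against 7.35% of all 507440 merged regions. A single library called 21 and 20 of them (55.3% and 64.5%), and the same share over all merged regions was not computed. No region in either window belonged to a whole group and was missing from the whole opposite group, where 0.130% of all merged regions were called in all 3 silenced and no control library and 0.200% in all 3 control and no silenced library. With 69 regions in the 2 windows, a count of 0 says little at such shares.

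The windows differed most in the median background beneath their listed peaks. The background implied by height and fold enrichment, divided by the smallest such value of the library, is 1 where the surroundings add nothing. In the TERT window its median was 7.98, 6.74 and 7.27 in silenced and 7.11, 8.15 and 5.92 in control replicates, and the groups overlapped (7.33 ± 0.623 and 7.06 ± 1.12, SD, n = 3 each; exact permutation p = 0.9). In the TERC window it was 1.09, 1.14 and 1.69 in silenced and 1.11, 8.04 and 1.13 in control replicates. The high value belongs to control replicate 2, which listed only 6 peaks there. The TERC median depends on how many low peaks a list holds. Heights under 5 numbered 10, 6 and 6 in silenced and 7, 1 and 7 in control replicates. Over the TERC start region the ratio was 10.3, 11.2 and 10.6 in silenced and 9.79, 9.19 and 9.63 in control replicates. At the TERT start peaks it was lower, at 5.52 in silenced replicate 2 and 5.43 and 6.29 in control replicates 2 and 3. Averaged over libraries, the TERT window median of 7.19 was reached or passed by 3.22% of 19032 protein-coding gene windows, whose median was 1.79. The TERC value of 2.37 was reached or passed by 34.7%, but without control replicate 2 it was 1.23, reached or passed by 66.7% of windows, whose median was then 1.61. Without that library, 3.32% of windows were at or above the TERT value. Peak density differed less, at 11.5 peaks per 100 kb for TERT and 11.1 for TERC, against a gene median of 7.84.

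**Figure D4:**
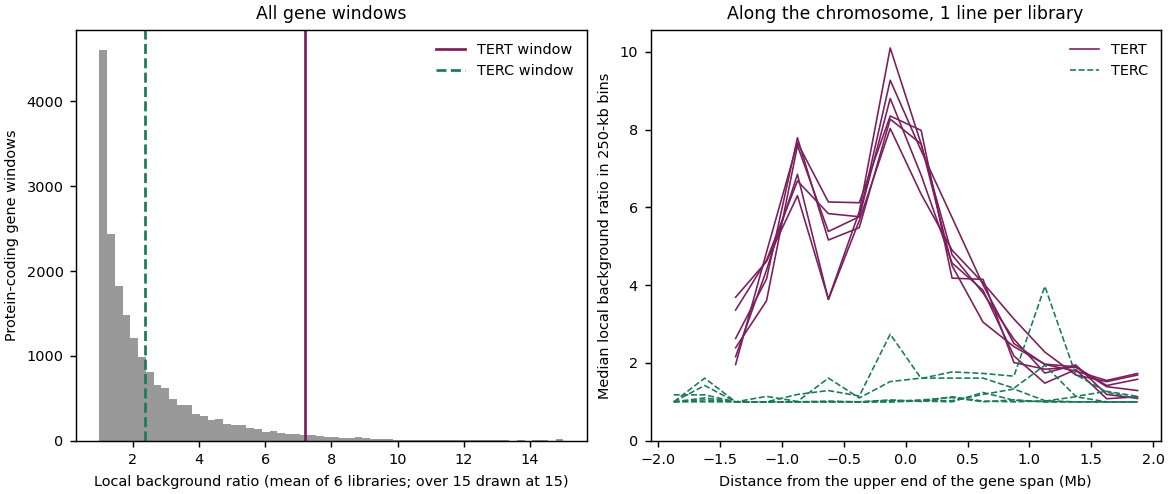
Left, the local background ratio (horizontal axis, mean of 6 libraries) over all protein-coding gene windows, with TERT and TERC as vertical lines; right, its median in bins of 250 kb against distance in Mb from the upper end of each gene span, 1 line per library. TERT sits in the upper tail at 7.19, and in every library the ratio is highest beside TERT and is 1.09 to 1.73 in the last bin before 2 Mb on the side away from the chromosome tip.

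The raised background around TERT extended past the gene. In the 250 kb below the TERT start the median ratio ran from 8.03 to 10.1 over the 6 libraries, and in the 250 kb above it from 6.34 to 7.98. It was 3.05 to 4.15 at 500 to 750 kb above the start and 1.08 to 1.55 at 1500 to 1750 kb. Around TERC, the ratio in the bins on either side of the start ran from 1.0 to 2.74, and the highest value of any bin within 2 Mb was 3.97.

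Among the genes listed for telomerase, all but TERT were accessible at a gene end in every library. The 15 particle genes are TERT, TERC and genes of the telomerase particle or linked to its assembly, RNA processing or control. Of these, 14 had a peak within 1 kb of an end in all 6 libraries, the exception being TERT, against 58.0% of all protein-coding genes. The 14 include DKC1, NOP10, NHP2 and GAR1, which bind and stabilise TERC, and WRAP53, which guides the particle within the nucleus. Their median scaled height ran from 61.9 at NOP10 to 348 at NHP2, and TERC was the only one whose silenced and control libraries did not overlap. Among all shared regions 4.78% were higher and 4.45% lower without overlap, so 1 gene of 14 is little to read from. All 12 telomere capping and maintenance genes had an end peak in all 6 libraries, among them POT1 and TINF2 of the shelterin complex, which coats chromosome ends. Their median scaled height ran from 50.7 at CTC1 to 292 at DAXX. ATRX, a chromatin remodeller linked to telomere upkeep without telomerase, was the only one of the 12 with non-overlapping groups, at 92.3, 92.0 and 76.1 in silenced and 129, 110 and 108 in control replicates, and 1 gene of 12 is again little beside those shares.

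**Figure D5:**
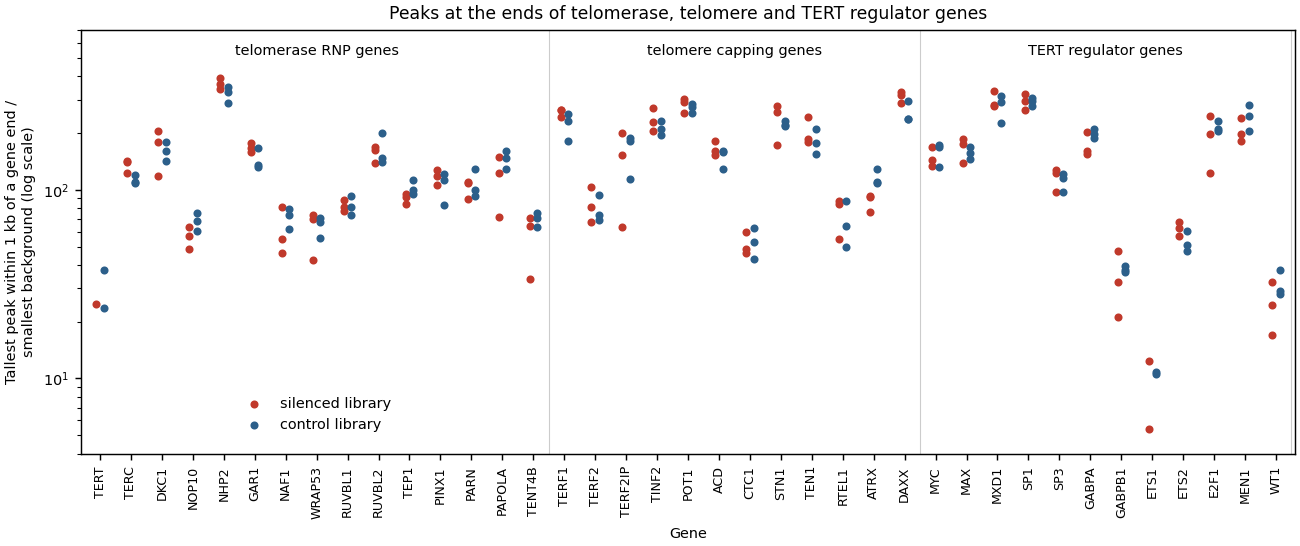
Height of the tallest peak within 1 kb of a gene end divided by the smallest background of the library (vertical axis, log scale) for each gene of the 3 lists, with 1 point per library. TERT has 3 points, all under 38, whereas every other gene of the telomerase particle list has 6 points and a median of at least 61.9.

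Among 12 genes that encode regulators of TERT transcription, 11 had an end peak in all 6 libraries, and the scaled height overlapped between groups at each of the 11. At shares of 4.78% and 4.45% over all shared regions, a count of 0 of 11 says little. The median ran from 28.5 at WT1 to 296 at SP1. MYC, which with MAX binds E-boxes of the class found before TERT, had deposited heights of 49, 68 and 34 in silenced and 64, 61 and 64 in control replicates. GABPA, a factor of the ETS family, had deposited heights of 59, 62 and 48 in silenced and 75, 87 and 78 in control replicates. These do not overlap, but they are not corrected for depth. On deposited height, 3276 of the 37284 shared regions were lower and 60 higher without overlap. The scaled heights of GABPA overlapped, at 160, 154 and 203 in silenced and 197, 188 and 210 in control replicates. ETS1 was the exception, with heights of 2 to 5 in 4 libraries. Nearly every listed gene had an end peak in every library, so the number of such genes had little room to differ. It was 14.3 ± 0.577 against 14.7 ± 0.577 particle genes, 12 ± 0 against 12 ± 0 capping genes and 11.7 ± 0.577 against 11.7 ± 0.577 regulators (SD, n = 3 each; exact permutation p = 1 for each).

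Other genes shared the patterns of TERT and TERC across libraries. End peaks in the same 3 libraries as TERT, and in no other, were found at 84 protein-coding or lncRNA genes. The nearest to TERT in the place of their peaks within the lists were SHISA8, ERAP2 and LOC103352541, at Euclidean distances of 9.69, 10.7 and 11.7 percentage points over 3 libraries. For TERC the nearest of 15506 genes called in all 6 libraries were COL5A2 and WDR75, both at 0.897 because their places were identical, and CEP162 at 1.47, over 6 libraries. These distances describe the lists, whose lengths and depths all genes share. The number of genes examined and the counts for other sets of libraries are not given, so 84 and 15506 cannot be called many or few.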

How the data were processed

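ATAC-seq peak lists of 6 libraries were analysed, 3 from silenced and 3 from control cells as the treatment label gives them. The submitters' processing notes name Trimmomatic 0.36, Bowtie2 2.2.6, Picard 2.8.2, MACS2 2.1.1, bedtools 2.25.0 and the build GRCh38, without their roles. A shift of read ends for the transposase, and the handling of duplicates and mitochondrial reads, are not given in the sources used here. The authors called peaks in each library separately: per the file headers every row gives an interval, a fold enrichment (a ratio over background), a p-value, an FDR and a pileup signal, called height here. The deposited p-values ran up to 0.00987.

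Only peaks on the autosomes and sex chromosomes entered. The local background of a peak is (height + 1) / fold enrichment − 1. Starts came from the RefSeq promoter table (GRCh38.p14), which lists TERT but not TERC, so for TERC both ends of its span served. A gene end peak has its midpoint within 1 kb of an end. Library values were compared by two-sided exact permutation of the difference of means, which cannot go below 0.1 with 3 against 3, with Benjamini-Hochberg adjustment over 10 tests. Regions merged from the 6 lists at an overlap of 1 bp and called in every list were ranked by fold enrichment within each list, turned into normal scores and fitted across all 37284 regions with limma 3.58.1 (R 4.3.3, trended prior, adjusted p of 0.05). On simulated data this fit found 68.5% of 200 regions given a shift of 2 score units, and none of 200 given a shift of 1. The simulated scores were independent normal values with each region's own mean and spread, so these rates need not hold for the real lists.

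The genes and the 3 lists were chosen with earlier results of these data known. Genes were named if they were TERT, TERC or a gene overlapping either window, if a listed gene lacked a peak in some library or served as a comparison, or if they were nearest in pattern; the listed genes given with heights as examples were picked after their values were seen. The titles number the libraries 1 to 3 in each group without saying that numbers were handled together, and paired versions were run as alternatives. Other alternatives were filters on FDR and height, lists of equal size, other windows and distances, and leaving out each library.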

Additional observations from a re-analysis of the deposited data

How the results depend on the processing

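With 3 libraries against 3, no exact test can reach 0.05, so these checks show signs and sizes (silenced minus control), not stability. The difference in TERT window peaks, −0.667, became 0 with 100 kb on either side, and leaving out 1 library gave −2.67 to 1.83, turning its sign without silenced replicate 1 (1.83). The TERT covered length, −352 bases, ran from −953 to 354 when 1 library was left out, turning without silenced replicate 1 (354). The TERC covered length, 307 bases, became 0 for peaks with an FDR up to 1e-05, −44.0 for those with an FDR below 0.05 and −111 for heights from 4; without 1 library it ran from −198 to 601, turning without control replicate 2 (−198). The TERT start was called in 0 libraries with an FDR up to 1e-05. The local background difference at TERT, 0.269, turned to −0.0461 with FDR below 0.05, −0.0823 with heights from 4 and −0.613 with 25 kb on either side, and ran from −0.302 to 0.815 without 1 library, turning without silenced replicate 1 (−0.0565) and without control replicate 3 (−0.302). That at TERC, −2.12, turned to 0.793 with FDR up to 1e-05, 0.0127 with FDR below 0.05, 0.752 with heights from 4, 0.583 with lists of equal size, 0.0568 with 25 kb on either side and 0.189 without control replicate 2, and ran from −3.28 to 0.189 without 1 library. Particle genes, −0.333, became 0 with ends widened to 5 kb. Regulator genes, 0, became −0.667 at either FDR limit and −0.333 with heights from 4 or with lists of equal size, and ran from −0.333 to 0.333 without 1 library. The cause of these changes was not tested.

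The rank comparison called 0 regions in all 12 settings, with 854 to 2462 regions at an unadjusted p under 0.05 (limma). The rank difference at the TERC start kept its sign, 0.19 to 0.33 without 1 library. That of the region below TERC, −0.01, turned to 0.04 ranked by p-value, 0.11 ranked by height, 0.16 when silenced replicate 2 was dropped, 0.02 when it was control replicate 1 and 0.08 when it was control replicate 3, and ran from −0.11 to 0.16 without 1 library. The scaled height at the TERC start, a scale added once the values were known, differed by 22.8 and by 19.6 to 29.1 without 1 library, whereas the deposited height differed by 0.333.

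Pairing by replicate number (replicate block) left the mean differences as they were, for example −0.667 TERT window peaks (exact sign-flip p = 0.75) and 22.8 at the TERC start on the scaled height (exact sign-flip p = 0.25, the smallest 3 pairs can give), and changed no call. Same-numbered libraries did not deviate together (correlations −0.002, 0.002 and −0.008 across regions). These values cannot tell whether such libraries were handled together.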

Other observations

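The TERT window also holds 2 amino acid transporter genes on the side away from the TERT start. SLC6A19, a neutral amino acid transporter of kidney and gut, carried 2 regions in all 6 libraries, which also lie in the span of the lncRNA locus LOC124900626. The first, at 1204679 to 1205077 of chromosome 5, reached heights of 48, 53 and 23 in silenced and 48, 52 and 47 in control replicates. The second (1208939 to 1209617) had heights of 49, 52 and 16 in silenced and 51, 62 and 51 in control replicates, and its scaled height was lower in every silenced library (133, 129 and 67.6) than in any control library (134, 134 and 137; two-sided exact permutation p = 0.1). The value of silenced replicate 3 made most of that difference, and 4.45% of all shared regions were likewise lower in every silenced library. No peak was listed within 1 kb of the start of SLC6A19 or of SLC6A18. Inside SLC6A18 a region at 1235419 to 1235726 was called in all 3 control libraries (heights 12, 11 and 14) and in silenced replicate 3 (height 7). These heights are not corrected for depth, and silenced replicate 3 was the library of lowest depth. The share of all merged regions with such calls was not computed, so no difference between groups is read from it.

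CLPTM1L, the gene beyond the TERT start, was accessible at its own start in all 6 libraries, with heights of 40, 44 and 17 in silenced and 45, 51 and 46 in control replicates. On the scaled height it stood at 109, 109 and 71.8 in silenced and at 118, 110 and 124 in control replicates, without overlap (two-sided exact permutation p = 0.1, the smallest possible). The nearest values were 109 and 110, and silenced replicate 3 made most of the difference. Such a pattern was seen in 4.45% of all shared regions. The rank difference there was −0.12 ± 0.24 (SE; limma adjusted p = 0.977). Its tallest region lay inside the gene, at 1332241 to 1333045, with heights of 63, 50 and 34 in silenced and 61, 61 and 60 in control replicates. A short region 20.4 kb below TERC, in no annotated gene, was called in all 6 libraries with heights of only 3 to 6.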
